A study of Mus musculus with 15 samples.

Results

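The smooth muscle contractile apparatus was followed through 10 of its genes across 5 groups of mouse cells, namely Acta2, Actg2, Cnn1, Tagln, Myl9, Myh11, Tpm1, Tpm2, Actn1 and Lmod1. Every probe set that carries 1 of these gene symbols was taken and read on its own, which gave 21 probe sets among the 45037 of the array that are not controls, and 10 genes among the 18193 that have a probe set with 1 symbol. Tpm1 and Tpm2 have 4 probe sets each, Acta2 and Actn1 have 3, Myh11 has 2, and the other 5 genes have 1.

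The series measured gene expression in 15 samples on Affymetrix mouse arrays, 3 per group, to follow cells through a hepatic programme and back. MLC are cells made from mouse primary hepatocytes in MSC-maintenance medium (low glucose DMEM, 10% FBS) with human TGF-β1 at 10 ng/ml to day 7, at 5 ng/ml to day 14 and at 1 ng/ml to day 28, and kept afterwards in the same medium without it. Hepatocyte are mouse primary hepatocytes in DMEM/F12 with 10% FBS. dHD28 are HD28 cells whose differentiation medium was replaced by MSC-maintenance medium. HD28 are MSC that received 20 ng/ml HGF, 10 ng/ml bFGF and 0.61 g/L nicotinamide in IMDM for 7 days, and then 20 ng/ml oncostatin M, 1 µmol/L dexamethasone and ITS+ premix. MSC are mouse mesenchymal stromal cells in MSC-maintenance medium. MSC, HD28 and dHD28 therefore form 1 line of descent, and Hepatocyte and MLC another. The labels give no strain, age or number of animals, and do not say whether replicates came from separate cultures or how long dHD28 cells spent in MSC medium, so p-values measure the spread between these samples, which may be technical.

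Smooth muscle contracts when myosin pulls on actin filaments, after calcium and calmodulin have switched on the kinase that phosphorylates the myosin light chains. The genes of this apparatus are known targets of serum response factor (Srf), which binds DNA at the CArG box and is helped by myocardin and the myocardin-related factors, whose entry into the nucleus follows the state of actin. Cultured stromal cells and activated liver stellate cells are known to express several of them outside smooth muscle, most of all Acta2, and TGF-β1 is a known inducer.

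Because CArG boxes define this gene family in textbooks, the bases upstream of the start site are shown for 4 genes, of which Myl9 and Cnn1 fell in HD28 cells and Acta2 and Tpm1 had no call there. Sequences are RefSeq promoter windows of GRCm38.p6, which were given for 7 of the 10 genes and not for Actg2, Tagln and Myh11. Each line gives the 250 bases before the annotated start, 5′ to 3′ on the gene's strand, and capitals mark a CArG box, exact or with 1 letter off, or the MCAT core GGAATG, the site of TEAD factors. Myl9 lies at chr2:156775214-156775463 on the plus strand, Cnn1 at chr9:22099003-22099252 on the plus strand, Acta2 at chr19:34255374-34255623 on the minus strand and Tpm1 at chr9:67049214-67049463 on the minus strand.
Myl9: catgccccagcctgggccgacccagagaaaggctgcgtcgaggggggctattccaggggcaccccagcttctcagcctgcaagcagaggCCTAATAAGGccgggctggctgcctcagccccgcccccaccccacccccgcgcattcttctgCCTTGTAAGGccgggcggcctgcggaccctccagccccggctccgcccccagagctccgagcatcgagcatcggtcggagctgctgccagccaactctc
Cnn1: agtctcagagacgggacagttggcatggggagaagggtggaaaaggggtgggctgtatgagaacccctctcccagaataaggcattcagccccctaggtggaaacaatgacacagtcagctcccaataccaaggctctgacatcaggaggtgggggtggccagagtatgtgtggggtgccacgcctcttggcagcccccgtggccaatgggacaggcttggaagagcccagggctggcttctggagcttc
Acta2: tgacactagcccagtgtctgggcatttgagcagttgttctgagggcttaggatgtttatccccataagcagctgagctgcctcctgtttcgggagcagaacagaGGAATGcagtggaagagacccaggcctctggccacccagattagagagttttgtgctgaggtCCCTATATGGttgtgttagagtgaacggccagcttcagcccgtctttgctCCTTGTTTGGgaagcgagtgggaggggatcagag
Tpm1: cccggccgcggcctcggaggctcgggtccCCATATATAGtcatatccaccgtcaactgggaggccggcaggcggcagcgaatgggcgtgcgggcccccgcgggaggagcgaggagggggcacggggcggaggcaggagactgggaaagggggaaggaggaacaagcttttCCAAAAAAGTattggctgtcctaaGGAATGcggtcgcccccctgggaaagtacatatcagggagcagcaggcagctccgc

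Both strands were searched over the 300 bases from 250 before to 50 after the start, and no CArG box overlapped an MCAT core in these genes. Myl9, a light chain of smooth muscle myosin, holds an exact CArG box that begins 161 bases before the start and a second with 1 letter off at 99 bases. Acta2 holds 2 with 1 letter off, at 84 and 34 bases before the start, and an MCAT core at 146. Tpm1 holds 2 with 1 letter off, at 221 and 80 bases, and an MCAT core at 56. Lmod1, which nucleates actin filaments, has 2 with 1 letter off, at 189 and 164 bases, and an MCAT core at 130. Cnn1, Tpm2 and Actn1 have neither motif in this window. Of all 32851 windows of the same length, 1.63% hold an exact CArG box, 21.1% hold one that is exact or 1 letter off, 14.7% hold an MCAT core, and 3.41% hold both a CArG box of the wider kind and an MCAT core.

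Values are RMA expression levels on a log2 scale, so 1 unit is a fold of 2, and levels are compared between arrays for 1 probe set and not between probe sets. Array medians lay between 4.84 and 4.95. A probe set was said to have risen or fallen when limma gave a Benjamini-Hochberg adjusted p under 0.05, over all 45037 probe sets, with a fold of at least 2. HD28 replicate 3 stood apart from its group. The mean level of 7 hepatocyte marker genes was 12.4 there, against 4.19 and 4.42 in HD28 replicates 1 and 2, between 13.3 and 13.5 in Hepatocyte arrays and between 4.38 and 4.61 in MSC arrays, so HD28 replicates 1 and 2 lay at the level of MSC. Kupffer cell markers were at 5.84 in HD28 replicate 3, against 3.92 and 4.19 in replicates 1 and 2. The mean of stellate cell and pericyte markers was 5.11 there, against 4.29 and 4.45, and that of endothelial markers 4.74, against 3.69 and 4.06. The actin 3′ minus 5′ difference, a sign of RNA quality, was 0.94, against 0.29 and 0.23. In Hepatocyte replicates 1, 2 and 3 it was 0.66, 1.24 and 1.23, and in MLC, dHD28 and MSC arrays between 0.08 and 0.44. Results that rest on HD28 are given with and without this array.

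Arrays of MLC, dHD28 and MSC correlated closely across these groups as well as within them. The highest correlation of any 2 arrays, 0.996 over all probe sets, joined MLC replicate 3 and MSC replicate 3, while pairs within MSC reached 0.991, pairs within MLC 0.988 and pairs within dHD28 0.982. That pair across groups was thus closer than any pair within a group. Whether these 3 groups share cells, RNA or labels was not tested, and every result on MLC and dHD28 rests on the labels. The poly-A spike-in probe sets split the 15 arrays into 6 with a high mean signal (7.35 to 8.5) and 9 with a low one (4.70 to 5.49), and each group holds both kinds.

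Over the 5 groups, the limma F test passed at an adjusted p under 0.05 for 17 of the 21 probe sets, against 34.7% of all probe sets. Every one of the 10 genes had at least 1 probe set among them. The exceptions were Acta2 1444105_at and 1456658_at, Myh11 1418122_at and Tpm1 1447713_at, none of which exceeded a level of 5.10 in any array.

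**Figure D1:**
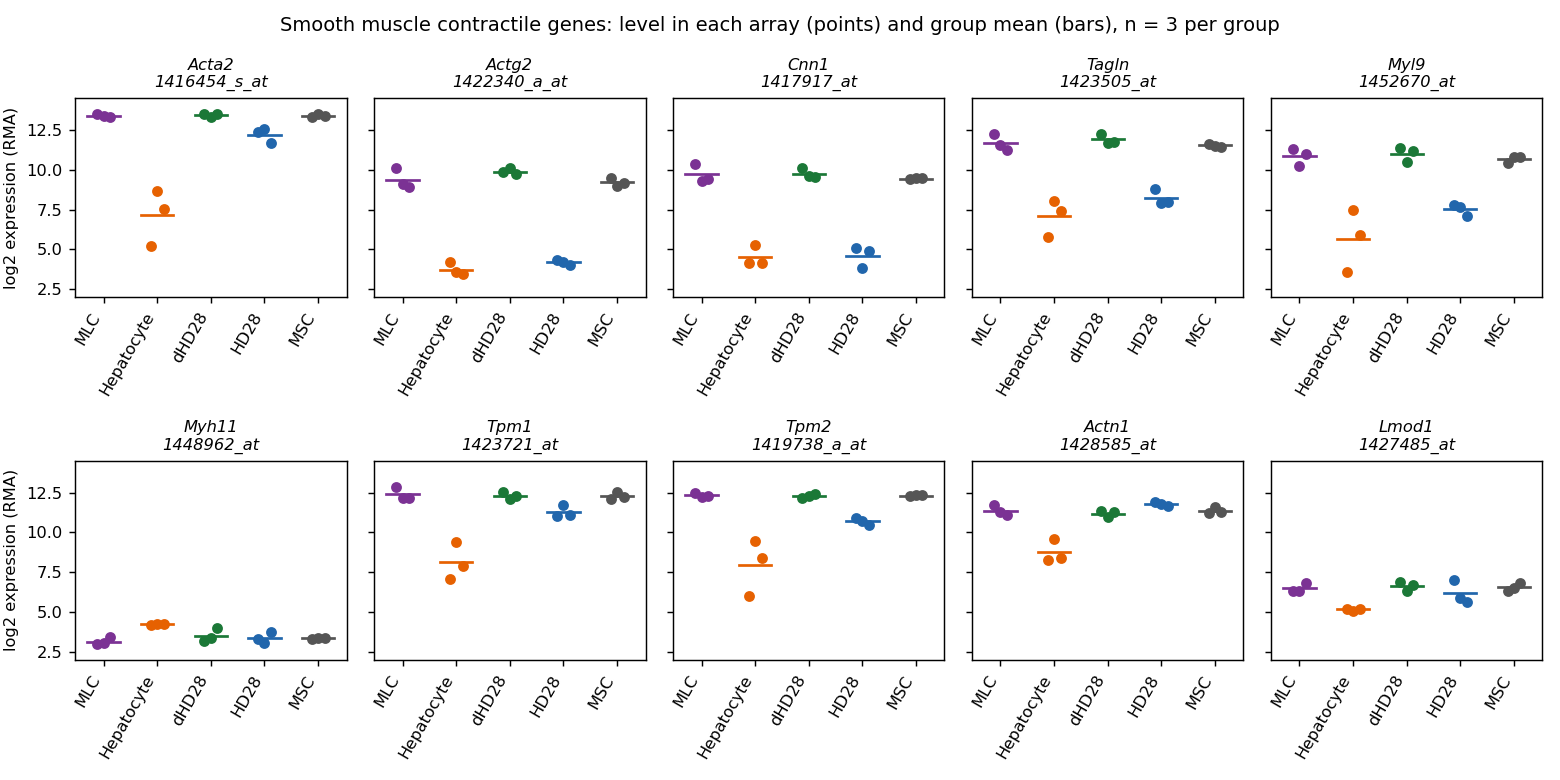
Log2 RMA level of the brightest probe set of each of the 10 genes in each array (points, n = 3 per group), with the group mean as a bar, in MLC, Hepatocyte, dHD28, HD28 and MSC. Actg2 lies between 8.89 and 10.13 in MLC, dHD28 and MSC and between 3.45 and 4.37 in Hepatocyte and HD28, while Acta2 and Actn1 stay high in HD28, and Myh11 is dim in every group.

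HD28 was set against MSC to see what the hepatic protocol did to these genes. In HD28 cells 6 of 21 probe sets, of 5 genes, fell and 0 rose, against 2.32% of all probe sets lower and 2.28% higher. The genes that fell were Actg2, Cnn1, Tagln, Myl9 and Tpm2, by 3.31-fold to 31.8-fold. The median log2 change of the 21 probe sets was -0.99, against -0.07 over all probe sets. Arrays of the 2 groups did not overlap for 12 of 21 probe sets, against 24.4% of all probe sets.

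Actg2, the enteric smooth muscle actin, had levels of 4.37, 4.24 and 4.05 in HD28 arrays, against 9.45, 9.0 and 9.18 in MSC arrays. All HD28 arrays lay far below all MSC arrays, and the log2 change was -4.99 ± 0.29 (SE, n = 3 per group, limma adjusted p = 7.5e-07). The HD28 levels lie under the median of every array. No detection calls were used here, so a fold of Actg2 against HD28 or Hepatocyte is a fold against a dim level and may understate the change. Cnn1 encodes calponin 1, a regulator of actomyosin that binds actin. It measured 5.07, 3.82 and 4.90 in HD28 arrays and 9.40, 9.47 and 9.47 in MSC arrays, a log2 change of -4.85 ± 0.38 (limma adjusted p = 9.8e-06). Again the groups did not overlap, and the SD was 0.68 in HD28 and 0.04 in MSC.

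Tagln encodes transgelin, an actin-binding protein that is an early marker of the smooth muscle lineage. Its level was 8.79, 7.91 and 7.99 in HD28 arrays, against 11.64, 11.48 and 11.45 in MSC arrays, and it fell 9.79-fold (log2 -3.29 ± 0.46, limma adjusted p = 0.00082). Myl9 measured 7.79, 7.69 and 7.08 in HD28 arrays and 10.42, 10.83 and 10.78 in MSC arrays, and it fell 8.91-fold (log2 -3.16 ± 0.68, limma adjusted p = 0.014). The lowest HD28 array for Myl9 was replicate 3. For Tagln it was replicate 2.

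Tpm2 encodes β-tropomyosin, which lies along the actin filament. Its probe set 1419739_at measured 6.07, 5.18 and 5.51 in HD28 arrays, against 7.02, 7.58 and 7.33 in MSC arrays, and fell by 1.73 ± 0.33 on the log2 scale (limma adjusted p = 0.0066). The set 1449577_x_at measured 8.28, 8.59 and 8.43 in HD28 arrays, against 10.71, 10.70 and 10.38 in MSC arrays, and fell by 2.16 ± 0.42 (limma adjusted p = 0.0077). The other 2 Tpm2 probe sets had changes of like size but no call. The brightest, 1419738_a_at, read 10.90, 10.69 and 10.47 in HD28 arrays and 12.27, 12.32 and 12.35 in MSC arrays, with a log2 difference of -1.62 ± 0.59 (limma adjusted p = 0.14), and 1425028_a_at had -1.93 ± 0.81 (limma adjusted p = 0.21). Neither overlapped between the groups.

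Acta2 encodes smooth muscle α-actin. Its main probe set 1416454_s_at measured 12.39, 12.56 and 11.66 in HD28 arrays, against 13.30, 13.47 and 13.38 in MSC arrays. The arrays did not overlap, but the log2 difference of -1.18 (95% interval -2.46 to 0.10) did not pass the test (limma adjusted p = 0.31). The standard error pools the spread of all 5 groups, and the 3 Hepatocyte arrays spread by an SD of 1.75 for this probe set, against 0.48 in HD28 and 0.08 in MSC. Without Hepatocyte replicate 1 the same -1.18 passed (limma adjusted p = 0.022), and this was the only 1 of 29 alternatives in which it did. It did not pass with only the HD28 and MSC arrays in the fit. Tpm2 1419738_a_at also passed without Hepatocyte replicate 1 (adjusted p = 0.0013), and so did Tpm2 1425028_a_at (adjusted p = 0.0011).

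Tpm1 encodes α-tropomyosin. Its brightest probe set 1423721_at read 11.05, 11.73 and 11.10 in HD28 arrays, against 12.11, 12.51 and 12.23 in MSC arrays, a log2 difference of -0.99 ± 0.44 (limma adjusted p = 0.24). The set 1423049_a_at read 10.62, 11.07 and 10.03 in HD28 arrays and 11.76, 12.15 and 11.90 in MSC arrays, a difference of -1.36 ± 0.45 (adjusted p = 0.10), which passed in 1 of 28 alternatives, without Hepatocyte replicate 2 (adjusted p = 0.020). Neither set overlapped between the groups, and the other 2 Tpm1 sets did.

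Actn1 and Lmod1 did not pass in this comparison. Actn1 encodes α-actinin 1, a cross-linker of actin filaments that non-muscle cells also use. Its brightest probe set 1428585_at read 11.89, 11.77 and 11.64 in HD28 arrays and 11.21, 11.59 and 11.26 in MSC arrays. All HD28 arrays were above all MSC arrays, by 0.42 (95% interval -0.21 to 1.04, limma adjusted p = 0.50). The other 2 Actn1 sets had differences of 0.94 and 0.67, with overlapping arrays. Lmod1 read 7.00, 5.92 and 5.61 in HD28 arrays and 6.35, 6.50 and 6.86 in MSC arrays, with the groups overlapping. The 2 dim Acta2 sets, with log2 differences of -0.59 and -0.44, also overlapped.

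Myh11, the smooth muscle myosin heavy chain and the gene most restricted to mature smooth muscle, was dim throughout. Its 2 probe sets lay between 2.98 and 4.29 in all 15 arrays, in the lower 23.6% of all probe sets by mean level. The difference between HD28 and MSC was 0.12 and 0.02 for the 2 sets, with no call, and arrays overlapped in both.

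Without HD28 replicate 3, all 6 probe sets that fell in HD28 passed again. The log2 change was then -4.91 for Actg2, -5.0 for Cnn1, -3.17 for Tagln and -2.94 for Myl9, whose limma adjusted p was 0.048. For Acta2 it was -0.91, which did not pass (limma adjusted p = 0.53). The share of these differences tied to the hepatocyte, Kupffer cell, stellate cell and endothelial marker signal of replicate 3 was not tested beyond this. In RNA of whole cultures, fewer cells of a type and less RNA per cell cannot be told apart.

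**Figure D2:**
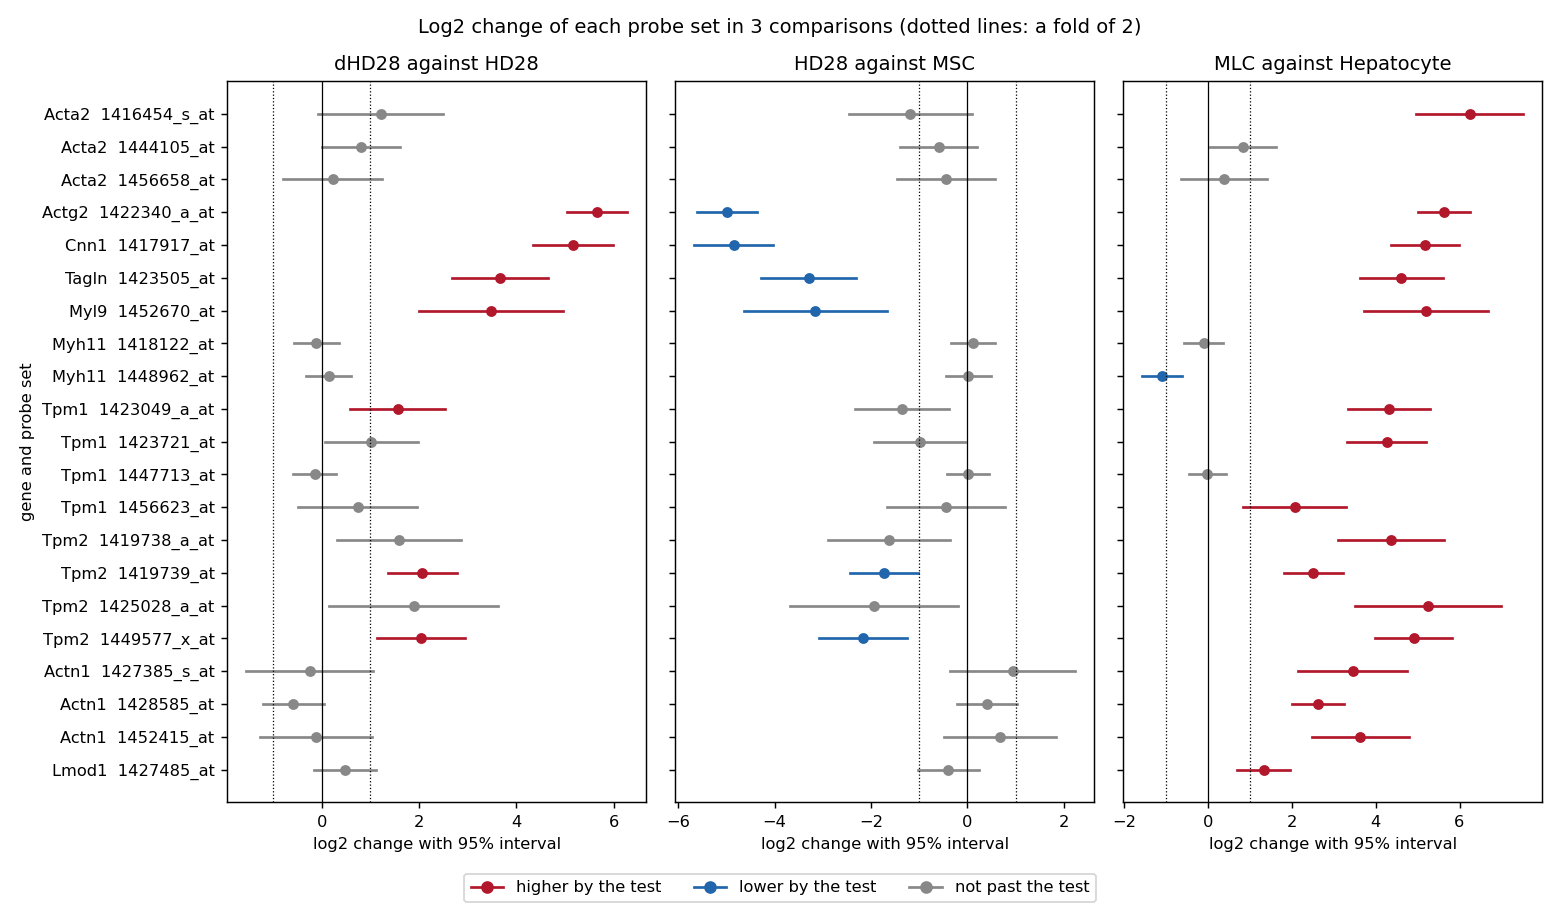
Log2 change of each of the 21 probe sets with its 95% interval, for dHD28 against HD28, HD28 against MSC and MLC against Hepatocyte, coloured by whether the test was passed. Actg2, Cnn1, Tagln and Myl9 stand farthest from 0 in the first and second panels, and in the third Acta2, Tpm1, Tpm2 and Actn1 are also far to the right.

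The return of HD28 cells to MSC medium was read from dHD28 against HD28. In dHD28 cells 7 of 21 probe sets, of 6 genes, rose against HD28 and 0 fell, where 3.36% of all probe sets rose and 2.89% fell. These comparisons share the HD28 arrays, so the fall in HD28 and the rise in dHD28 are not independent and are given side by side. The median log2 change was 1.02, against 0.04 over all probe sets, and 12 of 21 probe sets did not overlap, against 23.5% of all.

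Actg2 measured 9.84, 10.10 and 9.71 in dHD28 arrays, against 4.37, 4.24 and 4.05 in HD28 arrays, and rose 50.6-fold (log2 5.66 ± 0.29, limma adjusted p = 2.4e-07). Cnn1 measured 10.13, 9.59 and 9.56 in dHD28 arrays, against 5.07, 3.82 and 4.90 in HD28 arrays, and rose 35.8-fold (log2 5.16 ± 0.38, limma adjusted p = 6.5e-06). For Tagln the dHD28 arrays read 12.25, 11.69 and 11.75, against 8.79, 7.91 and 7.99 in HD28 arrays, a rise of 12.7-fold (limma adjusted p = 0.00033). None of these 3 genes overlapped between the groups.

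Myl9 measured 11.35, 10.48 and 11.19 in dHD28 arrays, against 7.79, 7.69 and 7.08 in HD28 arrays, and rose 11.2-fold (limma adjusted p = 0.0063). Tpm2 rose by 2.07 ± 0.33 (adjusted p = 0.0016) and 2.04 ± 0.42 (adjusted p = 0.0086) on the log2 scale in 1419739_at and 1449577_x_at, and both also lay apart between the groups. Tpm1 1423049_a_at rose by 1.56 ± 0.45 with an adjusted p of 0.048, and this call was lost in 14 of 28 alternatives, among them without HD28 replicate 3 (log2 1.29, adjusted p = 0.16). Acta2 1416454_s_at read 13.47, 13.28 and 13.48 in dHD28 arrays, above all HD28 arrays, but its log2 difference of 1.21 (95% interval -0.07 to 2.49) did not pass (limma adjusted p = 0.27). It passed in 2 of 29 alternatives, without Hepatocyte replicate 1 (adjusted p = 0.016) and with only the arrays of these 2 groups in the fit (adjusted p = 0.047). Without HD28 replicate 3, the lowest HD28 array for Acta2, the difference was 0.94 and did not pass (limma adjusted p = 0.52).

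Actn1 1428585_at read 11.35, 10.94 and 11.26 in dHD28 arrays, below all HD28 arrays, with a log2 difference of -0.58 (limma adjusted p = 0.27). Lmod1 differed by 0.48 and Myh11 by -0.11 and 0.14, with overlapping arrays and no call. Without HD28 replicate 3 the log2 rise was 5.58 for Actg2, 5.31 for Cnn1, 3.55 for Tagln and 3.26 for Myl9, each still past the test, as were both Tpm2 sets.

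Set against the MSC they came from, dHD28 cells had no called member. In limma 0 of 21 probe sets passed in either direction, and 0% of all probe sets rose and 0% fell. At an unadjusted p under 0.05 there was 1 of 21 members and 707 of all 45037 probe sets (1.57%). That member was Actg2, at 9.84, 10.10 and 9.71 in dHD28 arrays against 9.45, 9.0 and 9.18 in MSC arrays, a log2 difference of 0.67 (95% interval 0.05 to 1.29, limma adjusted p = 1). Cnn1 and Tagln were likewise higher in all dHD28 arrays than in all MSC arrays, by 0.31 and 0.38, each with an adjusted p of 1. These 3 are the only members whose arrays did not overlap, against 5.63% of all probe sets. Intervals of the 21 differences reached from -1.79 to 1.99, with an SE that pools the spread of all 5 groups.

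Hepatocytes were set against MSC, and MLC against the hepatocytes they were made from. In Hepatocyte arrays 16 of 21 probe sets, of 9 genes, were lower than in MSC and 0 were higher, against 13.4% of all probe sets lower and 8.81% higher. In MLC 16 of 21, of 9 genes, rose against Hepatocyte and 1 fell, against 13.8% of all probe sets higher and 8.92% lower. These 2 comparisons share the Hepatocyte arrays. Arrays did not overlap for 18 of 21 probe sets in each, against 44.7% of all probe sets for Hepatocyte against MSC and 49.1% for MLC against Hepatocyte.

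Acta2 1416454_s_at measured 13.48, 13.34 and 13.31 in MLC arrays, against 5.23, 8.66 and 7.51 in Hepatocyte arrays, and rose 75.8-fold (log2 6.24 ± 0.59, limma adjusted p = 2.9e-06). The SD was 0.09 in MLC arrays and 1.75 in Hepatocyte arrays, whose lowest array was replicate 1. In MSC this probe set read 13.30, 13.47 and 13.38, so the Hepatocyte arrays were lower than MSC by 6.25 ± 0.59 (limma adjusted p = 3e-06). Actg2 measured 10.13, 9.12 and 8.89 in MLC arrays, against 4.18, 3.59 and 3.45 in Hepatocyte arrays, and rose 49.9-fold (limma adjusted p = 2.2e-08). Cnn1 measured 10.36, 9.31 and 9.44 in MLC arrays, against 4.17, 5.26 and 4.15 in Hepatocyte arrays, and rose 36.1-fold (limma adjusted p = 3.4e-07).

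Hepatocyte arrays were lower than MSC arrays by 5.47 ± 0.29 for Actg2 (limma adjusted p = 2.8e-08) and by 4.92 ± 0.38 for Cnn1 (adjusted p = 5.2e-07). Tagln measured 12.25, 11.54 and 11.26 in MLC arrays, against 5.79, 8.03 and 7.40 in Hepatocyte arrays, and rose 24.5-fold (limma adjusted p = 4.1e-06). Myl9 measured 11.32, 10.24 and 11.01 in MLC arrays, against 3.61, 7.45 and 5.89 in Hepatocyte arrays, and rose 36.9-fold (limma adjusted p = 4.6e-05). Both were fully apart between MLC and Hepatocyte arrays, although Hepatocyte replicate 2 was far above replicate 1. Against MSC, Hepatocyte arrays were lower by 4.45 ± 0.46 for Tagln (adjusted p = 5.8e-06) and by 5.03 ± 0.68 for Myl9 (adjusted p = 6.3e-05).

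The tropomyosins and α-actinin 1 rose too. Tpm1 1423721_at measured 12.84, 12.18 and 12.18 in MLC arrays, against 7.09, 9.42 and 7.90 in Hepatocyte arrays (log2 4.26 ± 0.44, limma adjusted p = 5.6e-06). Tpm2 1419738_a_at measured 12.49, 12.20 and 12.27 in MLC arrays, against 6.0, 9.49 and 8.38 in Hepatocyte arrays (log2 4.36 ± 0.59, limma adjusted p = 5.5e-05). Actn1 1428585_at measured 11.72, 11.25 and 11.12 in MLC arrays, against 8.27, 9.57 and 8.39 in Hepatocyte arrays (log2 2.62 ± 0.29, limma adjusted p = 9.8e-06). In all 3 the groups were fully apart.

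The remaining probe sets of Tpm1, Tpm2 and Actn1 rose by 2.06 to 5.26 on the log2 scale, apart from Tpm1 1447713_at, which is dim everywhere and had -0.02. Lmod1 measured 6.33, 6.33 and 6.82 in MLC arrays, against 5.19, 5.10 and 5.22 in Hepatocyte arrays, and rose 2.5-fold (limma adjusted p = 0.0031). Its MSC arrays read 6.35, 6.50 and 6.86, and Hepatocyte was lower than MSC by 1.40 ± 0.30 (adjusted p = 0.0022). The 1 member that fell was Myh11 1448962_at, at 2.98, 3.04 and 3.45 in MLC arrays and 4.20, 4.28 and 4.29 in Hepatocyte arrays (log2 -1.10 ± 0.22, limma adjusted p = 0.0014). Both of its groups lie in the dim range, and the other Myh11 set differed by -0.11. Tpm1 1456623_at lost its call in MLC without MLC replicate 1 (log2 1.76, adjusted p = 0.055). Against MSC it was lower in Hepatocyte by 1.92 ± 0.57 (adjusted p = 0.018), a call lost without MSC replicate 2 (adjusted p = 0.073) or Hepatocyte replicate 3 (adjusted p = 0.063).

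The Hepatocyte arrays differed among themselves in several members and in markers of other liver cells. The mean level of the brightest probe sets was 5.37 in replicate 1, 7.09 in replicate 2 and 6.26 in replicate 3. Mean levels of 8 stellate cell and pericyte markers were 5.67, 7.00 and 7.04 in the same order, of 8 stromal markers 5.16, 6.28 and 6.28, of 8 Kupffer cell markers 6.68, 8.18 and 8.59, and of 8 endothelial markers 5.83, 6.74 and 6.89. Lrat, the enzyme that esterifies retinol for storage in stellate cells, measured 3.39, 7.97 and 7.04, and Rgs5, a pericyte gene, 7.32, 9.97 and 9.92. Not all of that list ran this way. Cspg4 was highest in replicate 1, at 6.30, 5.82 and 5.78, and Gfap differed little, at 5.36, 5.39 and 5.60. In MLC arrays the 8 stellate cell and pericyte markers averaged between 4.39 and 4.45, and in MSC arrays between 4.34 and 4.67.

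Replicate 1 was lowest and replicate 2 highest in the brightest probe sets of Acta2, Tagln, Myl9, Tpm1, Tpm2 and Actn1, and replicate 1 was lowest in all 4 marker means. Other members ran otherwise. Actg2 was highest in replicate 1, at 4.18, against 3.59 and 3.45 in replicates 2 and 3, Cnn1 was highest in replicate 2 but alike in the others, at 4.17 and 4.15, and Lmod1 lay between 5.10 and 5.22. The part of these cells in the members' Hepatocyte level was not tested, nor was that of RNA quality. Skeletal and cardiac muscle markers were flat, with means of 3.64 to 4.01 in all 15 arrays. Without Hepatocyte replicate 1 the rise in MLC was 5.29 for Acta2, 4.19 for Myl9, 3.97 for Tagln and 3.39 for Tpm2 1419738_a_at. Without replicate 2 it was 7.01, 6.11, 5.09 and 5.13 for the same probe sets. Leaving out 1 of these arrays moved 6 or 7 of the called folds by over 1.5 times, and all of those calls held.

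**Figure D3:**
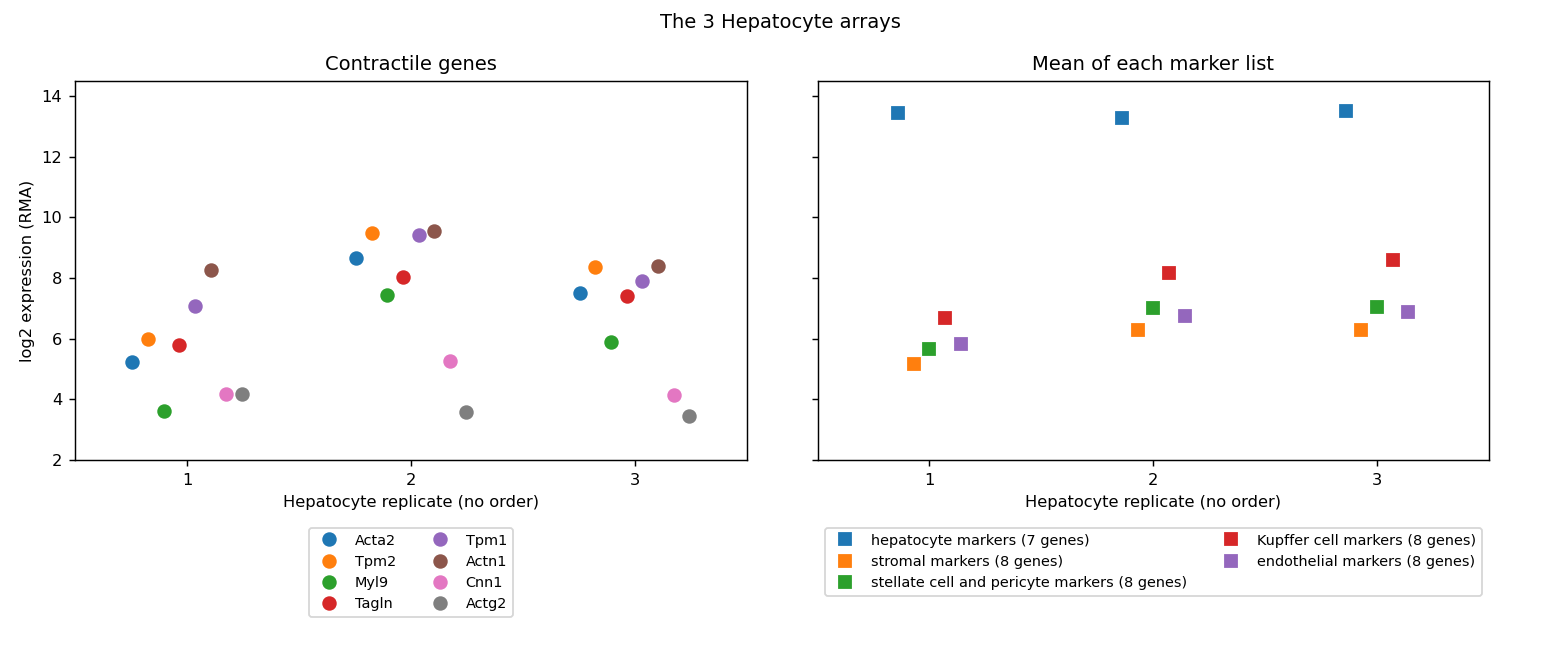
Log2 RMA level in the 3 Hepatocyte arrays, for the brightest probe set of 8 contractile genes (left) and for the mean of each marker list (right). Acta2, Tpm2, Myl9 and Tagln are lowest in replicate 1 and highest in replicate 2, and the stellate cell, stromal, Kupffer cell and endothelial marker means are also lowest in replicate 1, while the mean of the hepatocyte markers lies between 13.3 and 13.5 in all 3.

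MLC had no called member against MSC or against dHD28. In limma 0 of 21 probe sets passed in MLC against MSC, with 0% of all probe sets higher and 0% lower, and 0 of 21 passed in MLC against dHD28, again with 0% and 0% of all. At an unadjusted p under 0.05 there were 0 of 21 members in each comparison, and 268 (0.595%) and 238 (0.528%) of all probe sets. Differences ran from -0.23 to 0.45 between MLC and MSC, with interval bounds of -1.80 and 1.75, and from -0.52 to 0.21 between MLC and dHD28, with bounds of -1.75 and 1.73. Members whose arrays did not overlap numbered 0 of 21 in both, against 5.86% of all probe sets for MLC against MSC and 3.75% for MLC against dHD28. Acta2 averaged 13.38 ± 0.09 in MLC, 13.41 ± 0.11 in dHD28 and 13.38 ± 0.08 in MSC (SD, n = 3 each). The SE of its differences was nonetheless 0.59 in both comparisons, since the SE pools the spread of all 5 groups. The interval bounds above thus also carry the spread of HD28 and Hepatocyte arrays. With only the arrays compared in the fit, no member passed in either comparison.

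**Figure D4:**
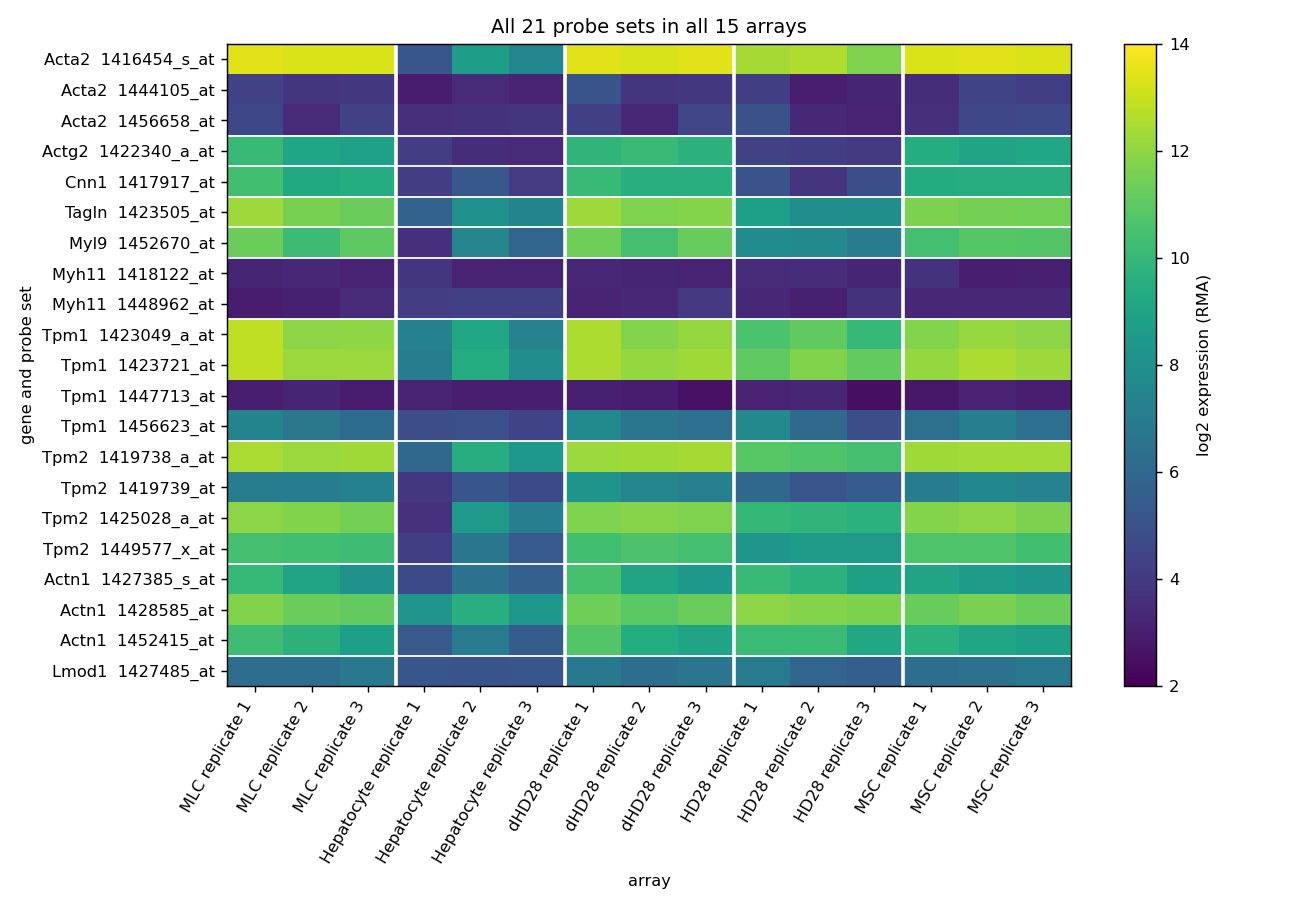
Log2 RMA level of all 21 probe sets (rows, grouped by gene) in all 15 arrays (columns, in the order MLC, Hepatocyte, dHD28, HD28 and MSC). Myh11, Tpm1 1447713_at and the 2 dim Acta2 sets are dark across every array, and for Tagln, Myl9, Cnn1 and Actg2 the Hepatocyte and HD28 columns are darker than those of MLC, dHD28 and MSC.

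The order of the group levels was not the same in all genes. For Actg2, Cnn1, Tagln and Myl9 the groups ran dHD28, MLC, MSC, then HD28, then Hepatocyte, from high to low. Tagln averaged 11.90 ± 0.30, 11.69 ± 0.51, 11.52 ± 0.10, 8.23 ± 0.49 and 7.08 ± 1.15 in that order (SD, n = 3 each). The first 3 did not differ by the test in any of these genes. HD28 and Hepatocyte arrays, which were not compared by a test of their own, overlapped in each of them. For Acta2 HD28 averaged 12.20 ± 0.48, with its highest array, at 12.56, below the lowest of the 3 high groups, at 13.28. Hepatocyte averaged 7.13 ± 1.75 and did not overlap with HD28. In the brightest sets of Tpm1, Tpm2 and Lmod1 the HD28 means, 11.29, 10.69 and 6.17, also lay between the 3 high groups and Hepatocyte. Actn1 1428585_at was highest in HD28, at 11.77 ± 0.13, and lowest in Hepatocyte, at 8.74 ± 0.72. Myh11 1448962_at, dim in every group, was highest in Hepatocyte, at 4.26.

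The changes on the 2 returns were set against each other. The rise in MLC over Hepatocyte less the rise in dHD28 over HD28 was higher than 0 for 8 of 21 probe sets and lower for 1, against 9.17% of all probe sets higher and 6.71% lower. This contrast was added after the values were seen. By arithmetic it is also MLC minus dHD28 plus HD28 minus Hepatocyte. MLC and dHD28 differed by -0.52 to 0.21 over the 21 probe sets. The contrast therefore largely restates how far apart HD28 and Hepatocyte lay before the returns. It was 5.04 ± 0.84 for Acta2 1416454_s_at, whose rise was 6.24 in MLC and 1.21 in dHD28 (limma adjusted p = 0.00089). For the 3 Actn1 sets it was 3.71, 3.20 and 3.75, for 2 Tpm1 sets 2.76 and 3.24, and for 2 Tpm2 sets 2.78 and 2.87. The Tpm2 value of 2.78 had an adjusted p of 0.032 and lost its call when any 1 of 8 arrays was left out (HD28 replicates 1 and 2, all dHD28 and all MLC replicates) and with only the arrays compared. The Myh11 1448962_at value was -1.24, and it was -1.0 without dHD28 replicate 3, which ended the call. Without Hepatocyte replicate 1, 3 of the 9 called differences moved by over 1.5 times, to between 1.80 and 4.08, and without Hepatocyte replicate 2 it was 5 of them, to between 3.38 and 5.80. Without dHD28 replicate 1 the Actn1 1427385_s_at difference was 4.30. Leaving out HD28 replicate 3 gave 5.31 for Acta2, 4.08, 3.27 and 4.08 for the Actn1 sets and 3.03 and 3.34 for the Tpm1 sets. It gave 2.88 and 2.87 for the Tpm2 sets and -1.43 for Myh11 1448962_at, and all 9 calls held.

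For Actg2 and Cnn1 the difference between the returns did not pass the test. Actg2 rose by 5.64 in MLC and 5.66 in dHD28, a difference of -0.02 (95% interval -0.90 to 0.86), and Cnn1 by 5.17 and 5.16, a difference of 0.01 (95% interval -1.15 to 1.17). Tagln differed by 0.94 (95% interval -0.45 to 2.34) and Myl9 by 1.72 (95% interval -0.37 to 3.81), without passing the test. Without Hepatocyte replicate 2 the Myl9 difference was 2.62 and passed (adjusted p = 0.026). The levels before the return were, for Acta2, 7.13 in Hepatocyte and 12.20 in HD28, and for Actg2 3.74 in Hepatocyte and 4.22 in HD28. All Actg2 arrays of these 2 groups lie under the array medians, and Cnn1 is near or under them there, so the values do not show that these genes rose equally in both returns.

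The arrays fall into separate groups, so correlations among the members were taken after the group means were removed, over the 15 arrays and with 10 residual degrees of freedom, as a description. For the brightest probe sets, Acta2 and Tpm2 then had r = 0.98, Acta2 and Myl9 0.95, Acta2 and Tagln 0.84, and Acta2 and Actg2 -0.33. The SD of Acta2 was 1.75 among Hepatocyte arrays and at most 0.48 in the other groups.

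Probe sets most like Tagln over the 15 arrays, of 10791 that range over at least 2 log2 units, were those of Hat1, Haus1, Mms22l, Mcm8 and Kif4, at r of 0.987 to 0.984. Ranks here count genes and not probe sets, with each gene placed by its best-correlated probe set, which need not be its brightest. Myl9 ranked 13, Tpm2 38, Cnn1 42, Actg2 106, Tpm1 504, Acta2 1030 and Actn1 2380 in that order. Lmod1 and Myh11 ranged over less than 2 log2 units and have no rank. Most like Acta2 were Tpm4, Ctbp2, Actr3, Flna and Spats2, at r of 0.996 to 0.993. Tpm1 ranked 17 there, Tpm2 83, Actn1 939, Myl9 1169, Tagln 1766, Actg2 2600 and Cnn1 2646. All points share the same arrays, and the difference between group means enters each of these r.

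Related genes were counted from 3 further lists, which were chosen with earlier results of these data known. Of 96 probe sets of 40 related contractile genes, 9 were higher and 7 lower in HD28 than in MSC, with a median log2 change of -0.10, against 2.28% of all probe sets higher, 2.32% lower and a median of -0.07. Itga8, the integrin α8 chain of smooth muscle and stellate cells, rose by 3.60 ± 0.83 (limma adjusted p = 0.019), and Prkg1, the cGMP-dependent kinase that relaxes smooth muscle, by 3.40 ± 0.37 (adjusted p = 0.00015). Csrp2, a LIM protein of smooth muscle, fell by 3.12 ± 0.40 (adjusted p = 0.00045), and the matrix protein gene Npnt fell by 2.45 ± 0.59 (adjusted p = 0.024). Smtn, which encodes smoothelin, a protein of contractile smooth muscle, rose by 1.36 (adjusted p = 0.037), and is named after its value was seen. With HD28 replicate 3 left out, 8 probe sets were higher and 3 lower, and Npnt (log2 -2.34, adjusted p = 0.069) and Smtn (log2 1.40, adjusted p = 0.075) no longer passed.

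In dHD28 against HD28 the same list had 7 higher and 9 lower, against 3.36% and 2.89% of all probe sets. Itga8 and Prkg1 both fell by 3.71, Fhl1 rose by 3.06 and Csrp2 by 2.97, and these 4 genes passed again without HD28 replicate 3, where the list had 3 higher and 9 lower. In MLC against Hepatocyte 31 were higher and 10 lower, against 13.8% and 8.92% of all probe sets. The largest rises were those of Aebp1 (5.20), Tgfb1i1 (4.69), Flna (4.64) and Csrp1 (4.63).

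**Figure D5:**
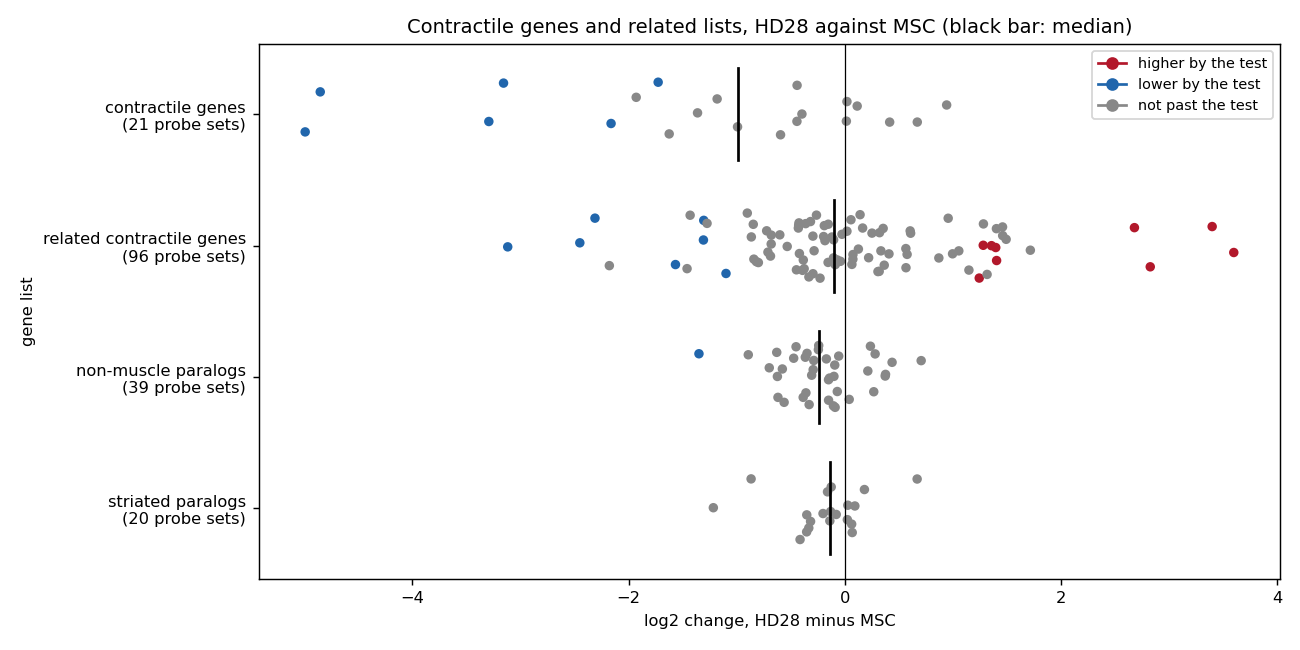
Log2 change in HD28 minus MSC for the 21 contractile probe sets and for 3 related lists (points are probe sets, with vertical scatter only for legibility), with the median of each as a black bar. The contractile genes have their median at -0.99, while the related contractile genes hold 9 probe sets that rose and 7 that fell.

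Paralogs used outside smooth muscle were counted next. Of 39 probe sets of 16 non-muscle paralogs, 0 rose and 1 fell in HD28 against MSC (Tpm3, -1.35), with a median of -0.24, where 2.28% of all probe sets rose and 2.32% fell. In dHD28 against HD28 1 rose and 0 fell, where 3.36% of all rose and 2.89% fell. In MLC against Hepatocyte 20 rose and 2 fell, where 13.8% of all rose and 8.92% fell, with Cnn2 at 5.25, Tpm4 at 4.23, Tagln2 at 3.63 and Actg1 at 2.81. Of 20 probe sets of 15 striated muscle paralogs, 0 rose and 0 fell in HD28 against MSC (limma), with Acta1 at -1.22 and Actc1 at -0.87, whereas in dHD28 against HD28 Acta1 (1.43) and Actc1 (1.09) rose. Without HD28 replicate 3, 0 probe sets of either paralog list passed in either comparison, with an adjusted p of 0.11 for Tpm3 in HD28 against MSC, and of 0.061 for Acta1 and 0.062 for Actc1 in dHD28 against HD28. Actin genes are near-identical in their coding sequence, and signal shared between the probe sets of Acta2, Actg2, Acta1 and Actc1 was not tested.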

How the data were processed

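Gene expression was measured in 15 samples on Affymetrix mouse arrays, with labelled cRNA made from 5 µg of total RNA per the labels' protocols. The deposited table holds log2 expression values that the authors made by RMA, per the submitters' processing notes, which give no version. No source names the base of the logarithm, and the values have the range of log2 data. Of 45101 probe sets, 64 are controls and stayed out. Of the other 45037, 34945 carry 1 gene symbol, 932 several and 9160 none in the array's annotation, and 34741 gene IDs matched RefSeq GRCm38.p6. No genome build is named for the table. The number of arrays limits the precision.

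The test was limma (version 3.58.1, under R 4.3.3), run with lmFit and eBayes on all 15 arrays with 1 mean per group, with 10 residual degrees of freedom, two-sided p and Benjamini-Hochberg adjustment over all probe sets. Errors of log2 changes are SE of this model, and errors of group means are SD. The 7 comparisons of pairs of groups and the F test were set down with the alternatives, and the difference between the returns was added after its values were seen, as were the counts of related lists without HD28 replicate 3. Members and lists were chosen with earlier results of these data known. Each member probe set is named or counted. Of each related list up to 4 genes with the largest called change are named, or 2 where none was called, and for Tagln and Acta2 the 5 genes most like them over 15 arrays, among probe sets with 1 symbol and a range of at least 2. Of 153 list entries 147 had a named probe set, and 1 of the related lists is not reported here.

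Deviations from the group means correlated in the 3 same-number pairs at 0.38, 0.29 and 0.25 for dHD28 and HD28, and at 0.20, 0.72 and 0.58 for MLC and dHD28. Pairs of unlike number were not computed for reference, so whether a number marks a shared culture or batch was not tested. In each other comparison at least 1 pair was under 0.1, and the labels do not say what a number marks. The alternatives were other choices of probe sets and filters, quantile normalization again, centring on the median or on 9 of 12 housekeeping genes, trend and robust priors, array weights, a fit limited to the groups compared, dropping the fold limit, blocks for the replicate number or the spike-in class, and leaving out each array. Figures were drawn with matplotlib 3.10.9.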

Additional observations from a re-analysis of the deposited data

Results flagged for a closer look

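The change on the return from Hepatocyte to MLC differed from that on the return from HD28 to dHD28 for 9 of the 21 probe sets, by a limma contrast of both changes in 1 model (adjusted p under 0.05, fold of at least 2), which was chosen after the values were seen. The difference, as the change in MLC less the change in dHD28 on the log2 scale, was 5.04 for Acta2 1416454_s_at. For Actn1, the α-actinin that non-muscle cells also use, it was 3.71 for 1427385_s_at, 3.20 for 1428585_at and 3.75 for 1452415_at. The tropomyosin gene Tpm1 had 2.76 for 1423049_a_at and 3.24 for 1423721_at. Tpm2 had 2.78 for 1419738_a_at and 2.87 for 1449577_x_at. Myh11 1448962_at, which is dim in every array, had -1.24. MLC and dHD28 themselves differed by -0.52 to 0.21 over the 21 probe sets. These differences therefore largely restate how far apart HD28 and Hepatocyte lay before the returns.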

How the results depend on the processing

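No call of the 21 probe sets changed direction under the 29 alternatives per comparison. Of the single values, 4695 stayed on their side of the test, 34 passed newly and 31 no longer passed. Calls held under every alternative for 6 of 6 probe sets in HD28 against MSC, 6 of 7 in dHD28 against HD28, 14 of 16 in Hepatocyte against MSC, 14 of 17 in MLC against Hepatocyte and 7 of 9 in the difference between the returns. With 1 probe set per gene the counts, out of 10, were 4 higher in dHD28 than in HD28, 9 lower in Hepatocyte than in MSC, 9 higher in MLC than in Hepatocyte, 4 higher in the difference between the returns and 10 by the F test. In Hepatocyte against MSC, 1 probe set (Myh11 1448962_at) was higher with housekeeping centring and 1 with no fold limit. In MLC against Hepatocyte the count of lower probe sets was 0 without dim probe sets, and 0 with quantile normalization again (Myh11 1448962_at, -0.96). In the difference between the returns it was 0 without dim probe sets. With each array left out, the counts were 6 to 9 lower in HD28 than in MSC, 6 to 10 higher in dHD28 than in HD28, 15 to 17 lower in Hepatocyte than in MSC, 15 to 16 higher and 1 lower in MLC than in Hepatocyte, 7 to 10 higher and 0 to 1 lower in the difference between the returns, and 16 to 18 by the F test. With housekeeping centring the median of all probe sets was 0.13 in HD28 against MSC, -0.19 in dHD28 against HD28, 0.70 in Hepatocyte against MSC and -0.75 in MLC against Hepatocyte, where it was -0.07, 0.04, 0.05 and -0.07 without it, and Lmod1 lost its calls there (-0.75 for Hepatocyte minus MSC, 0.64 for MLC minus Hepatocyte). With the replicate block every count of members was as without it, at 6 lower in HD28, 7 higher in dHD28, 16 lower in Hepatocyte, 16 higher and 1 lower in MLC, 8 higher and 1 lower in the difference and 17 by the F test, and no call of the 21 probe sets changed. The related lists were not fitted with the block.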
